A study of Mus musculus with 2 samples.

Results

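The genes described here are 10 genes of cytokinesis and hepatocyte polyploidy, chosen by symbol from 27998 genes in the deposited tables: the E2F transcription factors E2f1, E2f7 and E2f8 and the cytokinesis genes Anln, Ect2, Cit, Prc1, Racgap1, Kif20b and Diaph3. All 10 symbols were found, each on 1 row. They were measured by single-nucleus RNA sequencing of mouse liver, in hepatocyte nuclei and in cycling macrophage, endothelial and stellate nuclei. Both libraries were made from livers of C57BL/6 mice aged 12 weeks, 48 h after PHx (partial hepatectomy), an operation that removes part of the liver and makes the remainder regrow. The Sox9HKO library, called HKO, and the Sox9f/f library, called WT, stand for 1 sample each. The labels name no Cre driver and do not spell out HKO, and how many animals a library pools is not known here. With a single library per genotype, none of the differences could be tested or checked in replicates. Intervals in parentheses are exact 95% intervals that cover counting error only.

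Hepatocytes are known for leaving cytokinesis unfinished, which yields cells with extra nuclei or with polyploid nuclei. The atypical factors E2f7 and E2f8 repress cell cycle genes late in S phase and promote polyploidy in mouse hepatocytes, while E2f1, a classical activator, works against it. The cytokinesis genes act after the chromosomes have parted: Prc1 and Racgap1 build the central spindle, Ect2 activates RhoA at the cell equator, Anln and Diaph3 assemble the contractile ring, and Cit and Kif20b serve the midbody and abscission.

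Coordinates are those of the GENCODE annotation on GRCm38, the build named in the submitters' processing notes, and all 10 are protein-coding genes. E2f1 lies at chr2:154559407-154569892 on the minus strand, E2f7 at chr10:110745439-110787384 on the plus strand and E2f8 at chr7:48866429-48881596 on the minus strand. Prc1 lies at chr7:80294450-80316259 (plus strand), Racgap1 at chr15:99620496-99651656 (minus) and Ect2 at chr3:27097222-27153878 (minus). Anln lies at chr9:22332012-22389188 (minus), Diaph3 at chr14:86655367-87141235 (minus), Cit at chr5:115845278-116008947 (plus) and Kif20b at chr19:34922361-34975745 (plus). E2f7, E2f8 and Prc1 overlap genes on the opposite strand that the tables also count, 1, 1 and 2 of them, and whether the counting used strand is not known here. Cit also yields a brain isoform without the kinase domain, and counts per gene do not separate isoforms.

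The HKO library held 61123904 unique molecular identifiers (UMIs) in 14912 barcodes and the WT library 64609301 in 14701, with 70 barcodes shared. Hepatocyte-like nuclei numbered 8655 in HKO and 10936 in WT, macrophage-like 1956 and 1089, endothelial-like 2357 and 1131, and stellate-like 1164 and 639. Nearly every cluster belonged to 1 library, so that HKO hepatocyte-like nuclei fell in clusters 0, 9 and 13 while WT ones fell in clusters 1, 2 and 5, and library and genotype cannot be told apart. Clusters 13 and 2 were led by cell cycle genes such as Lockd, Esco2 and Ckap2, and 4 and 8 of 15 hepatocyte markers in them stood above the other classes. Hepatocyte markers were counted in all 4 classes: the median hepatocyte marker in the other 3 classes reached 78.8% to 87.9% of its hepatocyte-like level in HKO and 84.7% to 93.1% in WT. In the reverse direction, macrophage, endothelial and stellate markers in hepatocyte-like nuclei had medians of 2.58% to 6.59% of their own class's level in HKO and 5.06% to 9.67% in WT, with none of the 12 markers of each class at 0. Sox9 stood at 5.76 CPM (UMIs per 1000000 UMIs of the class) in HKO against 11.4 CPM in WT hepatocyte-like nuclei, and at 5.10 to 5.88 CPM and 8.54 to 8.96 CPM in the other classes, but a 3' tag need not lie in the deleted part, so this does not check the deletion.

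Cycle states were assigned from reference genes that include none of the 10. Each nucleus was thinned to 2000 UMIs. A nucleus with at least 3 UMIs of the reference G2/M list was called G2/M, one with at least 3 of the S list and fewer G2/M UMIs S, one with neither list "none", and the others intermediate. G2/M nuclei made up 6.70% (6.15 to 7.28) of 7672 hepatocyte-like nuclei in HKO and 16.6% (15.9 to 17.4) of 10732 in WT. The shares were 23.6% in HKO and 35.3% in WT of macrophage-like nuclei, 8.60% and 19.4% of endothelial-like nuclei, and 19.0% and 22.9% of stellate-like nuclei. Thinning left out 983 HKO and 204 WT hepatocyte-like nuclei, but 866, 1125 and 475 of the HKO macrophage-like, endothelial-like and stellate-like nuclei, and these shallow nuclei carried more of their own class's markers. Endothelial markers, for example, summed to 6549 CPM in the shallow HKO endothelial-like nuclei and to 2310.1 CPM in those called G2/M. The part of this depth gap in the class comparisons was not tested beyond the alternative that thins to 1000 UMIs.

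Cit, which encodes citron kinase, a RhoA effector of the midbody, was low in hepatocyte-like nuclei called G2/M. In G2/M hepatocyte-like nuclei Cit stood at 10.2 CPM in HKO (24 UMIs), against 4.83 CPM in WT (38 UMIs). It stood at 76.4 CPM in HKO against 49.4 CPM in WT macrophage-like G2/M nuclei, at 33.1 and 22.7 CPM in endothelial-like ones, and at 112 and 61.8 CPM in stellate-like ones. The hepatocyte-like level was the lowest of the 4 in both libraries, below the next, endothelial-like, and the macrophage-like and stellate-like levels had overlapping counting intervals in both. The fold of hepatocyte-like over macrophage-like nuclei was 0.133 (0.0805 to 0.212) in HKO and 0.0978 (0.0655 to 0.143) in WT. Over endothelial-like nuclei it was 0.307 (0.164 to 0.580) and 0.213 (0.125 to 0.367), and over stellate-like nuclei 0.0906 (0.0544 to 0.146) and 0.0782 (0.0494 to 0.123).

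Cit was the 1 member lower by a log2 ratio past 1 in all 6 of these comparisons, a pattern met by 2.06% of 9536 genes measured in each of them. Counted in single comparisons, genes lower by that much made up 10.9%, 7.39% and 12.3% against macrophage-like, endothelial-like and stellate-like nuclei in HKO, and 8.62%, 6.11% and 10.7% in WT. In WT, where Cit was below 5 CPM in hepatocyte-like nuclei, it counted as measured through the other classes. In S nuclei Cit stood at 3.78 CPM in HKO hepatocyte-like nuclei, against 1.90 CPM in WT ones, and its folds over the other classes ran from 0.0923 to 0.426, with 1 interval, over endothelial-like nuclei in HKO (0.182 to 1.08), that reached 1. Over all nuclei, whatever their cycle state, Cit stood at 2.76 CPM (2.26 to 3.34) in hepatocyte-like nuclei of HKO, against 2.29 CPM (1.87 to 2.76) in those of WT. The other classes had 29.2 and 22.8 CPM (macrophage-like), 17.2 and 15.6 CPM (endothelial-like) and 45.2 and 26.9 CPM (stellate-like). After thinning, 0.652% of hepatocyte-like nuclei in HKO and 0.457% in WT held a Cit UMI, against 7.43% and 6.26% of macrophage-like nuclei (unthinned 1.18% and 0.905%, against 9.25% and 11.02%).

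Markers of the other classes, counted in hepatocyte-like nuclei, give a level to set beside that of Cit. Cit was at 9.46% of the macrophage-like level in HKO and 10.0% in WT, where the median macrophage marker reached 6.59% and 9.67%. Against stellate-like nuclei Cit was at 6.11% and 8.51%, with the median stellate marker at 2.58% and 5.06%, and against endothelial-like nuclei at 16.1% and 14.7%, with the median endothelial marker at 5.05% and 6.06%. Cit lay above the median marker in each of these 6 pairs, and how much of its signal there is free RNA or doublets was not tested. Within hepatocyte-like nuclei Cit was higher in G2/M nuclei, at 5.16 times (2.69 to 10.1) the level of nuclei without reference transcripts in HKO and 4.13 times (1.73 to 11.9) in WT. In a selection chosen after seeing the data, G2/M hepatocyte-like nuclei had no UMI of the other classes' markers. They were set against G2/M nuclei of other classes with at least 3 of their own. The selection kept 163 of 514 HKO and 399 of 1785 WT hepatocyte-like G2/M nuclei. Over macrophage-like, endothelial-like and stellate-like nuclei the folds of Cit were 0.131, 0.261 and 0.1001 in HKO. In WT they were 0.0650, 0.134 and 0.0626.

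**Figure D1:**
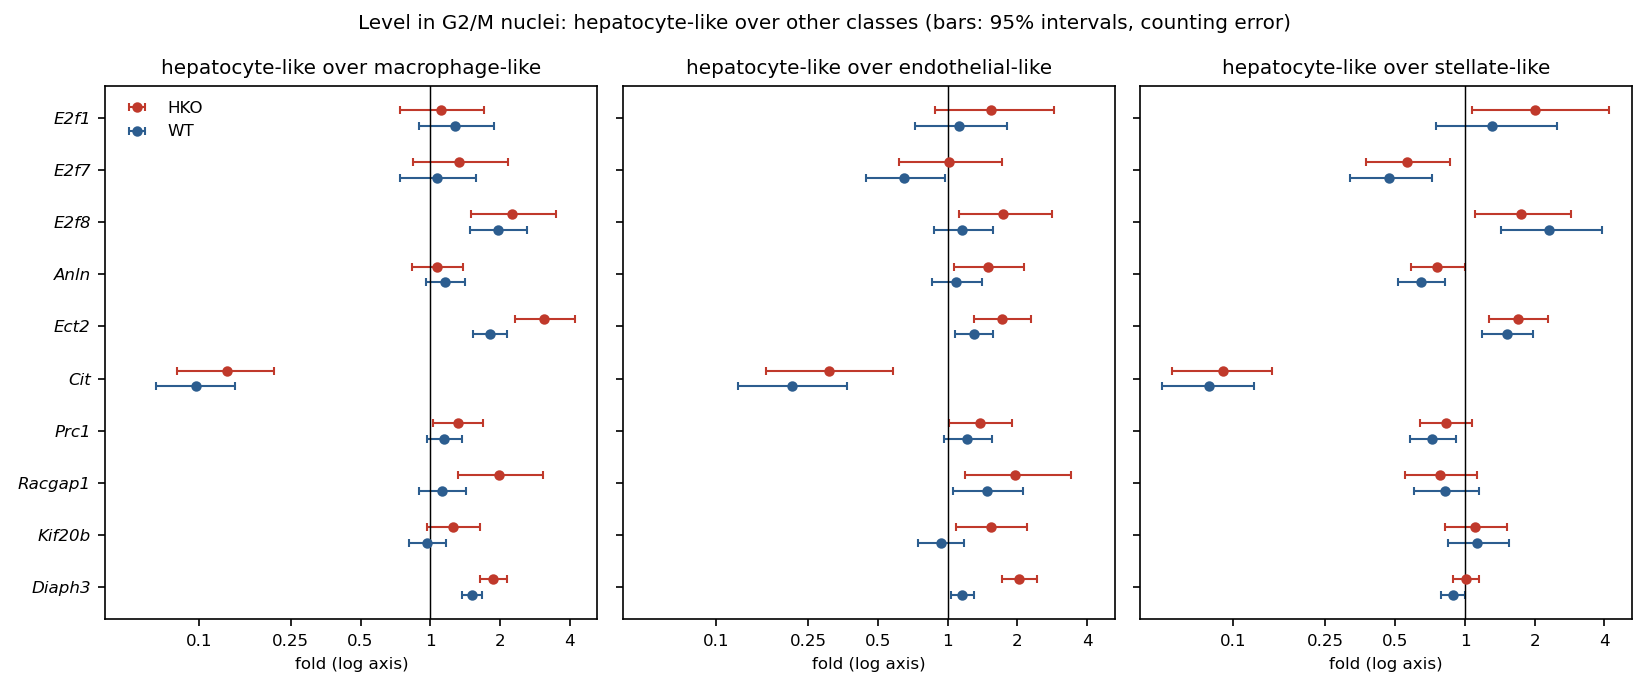
Fold of the CPM in G2/M hepatocyte-like nuclei over G2/M macrophage-like, endothelial-like and stellate-like nuclei (log axis) for the 10 genes, HKO above WT, with 95% counting intervals. Cit lies at 0.0782 to 0.307 in all 6 comparisons, while the other 9 genes lie between 0.472 and 3.10.

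Ect2, the exchange factor that activates RhoA at the cleavage plane, was higher in hepatocyte-like nuclei within G2/M. G2/M hepatocyte-like nuclei held 159 CPM of Ect2 in HKO and 143 CPM in WT, the highest of the 4 classes in both libraries. Macrophage-like G2/M nuclei held 51.3 and 79.5 CPM, endothelial-like 93.0 and 111 CPM, and stellate-like 94.0 and 94.7 CPM. The fold over macrophage-like nuclei was 3.10 (2.32 to 4.21) in HKO and 1.80 (1.53 to 2.14) in WT, over endothelial-like 1.71 (1.30 to 2.29) and 1.29 (1.07 to 1.57), and over stellate-like 1.69 (1.28 to 2.27) and 1.51 (1.19 to 1.96). All 6 intervals lay above 1, but the share of all genes with such intervals in the class comparisons was not counted. Per 100 UMIs of the reference G2/M genes, Ect2 was 5.42 (4.88 to 6.02) in HKO and 5.11 (4.81 to 5.43) in WT hepatocyte-like G2/M nuclei, and its intervals overlapped those of endothelial-like nuclei, 4.81 (3.64 to 6.25) and 4.42 (3.65 to 5.29), but not those of the other classes. Over all nuclei Ect2 was not highest in hepatocyte-like nuclei, at 22.6 CPM in HKO, between 21.6 and 27.7 CPM in the other classes, and at 45.5 CPM in WT, between 44.6 and 46.9 CPM. In S nuclei the folds of Ect2 ran from 0.954 to 2.003. There 1 of 6 intervals lay above 1, over stellate-like nuclei in HKO (1.02 to 4.48), on 9 stellate-like UMIs.

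Among the ring and spindle genes, Diaph3, a formin that nucleates ring actin, was higher in hepatocyte-like than in macrophage-like G2/M nuclei, at 483 CPM in HKO against 352 CPM in WT against 258 and 232 CPM, folds of 1.87 (1.64 to 2.15) and 1.52 (1.38 to 1.68). Against stellate-like nuclei, with 478 and 397 CPM, its intervals crossed 1. Anln, the ring scaffold anillin, stood at 94.0 and 76.2 CPM in hepatocyte-like G2/M nuclei of HKO and WT, against 124 and 118 CPM in stellate-like ones, a fold of 0.760 (0.583 to 1.001) and 0.646 (0.514 to 0.819). Prc1, which bundles the antiparallel microtubules of the spindle midzone, had folds over stellate-like nuclei of 0.827 (0.643 to 1.08) and 0.724 (0.580 to 0.913). Over macrophage-like nuclei Prc1 was at 1.31 (1.03 to 1.69) in HKO and 1.15 (0.964 to 1.38) in WT. Over endothelial-like nuclei it was at 1.38 (1.02 to 1.90) and 1.22 (0.964 to 1.55). Anln was at 1.07 (0.833 to 1.38) and 1.16 (0.961 to 1.41) over macrophage-like nuclei. Over endothelial-like nuclei Anln was at 1.49 (1.06 to 2.14) and 1.09 (0.859 to 1.40).

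Racgap1, the GTPase-activating subunit of centralspindlin, was at 55.5 CPM in HKO against 50.8 CPM in WT hepatocyte-like G2/M nuclei, against 28.4 and 34.5 CPM in endothelial-like ones, folds of 1.96 (1.19 to 3.40) and 1.47 (1.05 to 2.11). Over macrophage-like nuclei its folds were 1.98 (1.31 to 3.07) in HKO and 1.12 (0.890 to 1.42) in WT. Over stellate-like nuclei they were 0.782 (0.550 to 1.13) and 0.823 (0.603 to 1.15). Kif20b, a mitotic kinesin needed late in abscission, differed beyond its interval once in 6 comparisons, at 1.53 (1.09 to 2.20) over endothelial-like nuclei in HKO. The summed reference G2/M genes, which chose these nuclei, had HKO folds of 1.24 over macrophage-like, 1.51 over endothelial-like and 0.931 over stellate-like nuclei. In WT their folds were 1.22, 1.12 and 1.04. The part of these offsets in the folds of the single genes was not tested. Summed, the 7 cytokinesis genes gave 1009 CPM in HKO against 790.3 CPM in WT hepatocyte-like G2/M nuclei. They gave 664 and 626 CPM in macrophage-like, 599 and 695 CPM in endothelial-like and 1100.2 and 921 CPM in stellate-like G2/M nuclei.

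Set per 100 UMIs of the reference G2/M genes, the summed cytokinesis genes ranged from 28.9 to 37.8 over the 4 classes and both libraries. Over all nuclei hepatocyte-like nuclei had 32.9 (31.9 to 34.1) in HKO and 29.8 (29.2 to 30.5) in WT. Macrophage-like nuclei had 31.9 and 28.9, endothelial-like 35.5 and 30.6, and stellate-like 37.8 and 36.6. Cit on the same scale in G2/M nuclei was 0.347 (0.222 to 0.517) in HKO and 0.172 (0.122 to 0.237) in WT hepatocyte-like nuclei. In the other classes it was between 1.71 and 3.57 in HKO and between 0.905 and 2.30 in WT, so the gap was also there relative to each class's own mitotic transcripts.

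E2f8, an atypical repressor, was highest in hepatocyte-like G2/M nuclei in both libraries. It stood there at 63.1 CPM in HKO against 56.8 CPM in WT, against 28.1 and 29.1 CPM in macrophage-like, 36.2 and 49.1 CPM in endothelial-like and 36.3 and 24.7 CPM in stellate-like ones. The fold over macrophage-like nuclei was 2.25 (1.504 to 3.47) and 1.95 (1.48 to 2.60), and over stellate-like nuclei 1.74 (1.11 to 2.86) and 2.30 (1.44 to 3.91). Over endothelial-like nuclei the fold was 1.74 (1.12 to 2.83) in HKO and 1.16 (0.872 to 1.57) in WT, so the 2 levels in WT did not differ beyond counting error. The summed reference S genes were also higher in hepatocyte-like G2/M nuclei. Over macrophage-like, endothelial-like and stellate-like nuclei their folds were 1.16, 1.41 and 1.39 in HKO and 1.17, 1.17 and 1.38 in WT. The part of this offset in the folds of the E2F genes was not tested.

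Of the 10 genes, E2f8 and Ect2 were higher than in macrophage-like G2/M nuclei by a log2 ratio past 1 in HKO, as were 3.52% of all genes, and Diaph3 was so over endothelial-like nuclei, as were 3.94%. In WT E2f8 alone was so, over stellate-like nuclei, as were 2.57%. No member was over stellate-like nuclei in HKO, or over macrophage-like or endothelial-like nuclei in WT, where 5.51%, 0.546% and 1.01% of genes were. Besides Cit, E2f7 was lower by that much over stellate-like nuclei in WT.

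E2f7, the other atypical repressor, was lower in hepatocyte-like than in stellate-like G2/M nuclei. In G2/M nuclei it stood at 33.5 CPM in HKO against 19.4 CPM in WT hepatocyte-like nuclei, against 59.4 and 41.2 CPM in stellate-like ones, folds of 0.563 (0.375 to 0.861) and 0.472 (0.318 to 0.723). In S nuclei the hepatocyte-like level was 3.15 CPM in HKO (15 UMIs) against 4.94 CPM in WT (52 UMIs), against 19.7 and 19.6 CPM in endothelial-like nuclei, folds of 0.160 (0.0761 to 0.328) and 0.252 (0.154 to 0.420). Both hepatocyte-like levels were below 5 CPM, so E2f7 counted as measured in S nuclei through the other classes. The stellate-like S nuclei had 25.2 CPM in HKO and, on 4 UMIs, 8.24 CPM in WT, and the fold was 0.125 (0.0577 to 0.270) and 0.600 (0.221 to 2.28). Between S and G2/M nuclei E2f7 was 10.6-fold apart (6.07 to 19.9) in HKO and 3.93-fold (2.85 to 5.50) in WT hepatocyte-like nuclei, on the same 15 and 52 S UMIs. In endothelial-like nuclei this fold was 1.68 (0.866 to 3.26) in HKO and 1.53 (0.885 to 2.66) in WT. In macrophage-like nuclei the same fold was 2.94 (1.405 to 6.598) in HKO and 2.71 (1.35 to 5.89) in WT. In stellate-like nuclei it was 2.36 (1.28 to 4.56) in HKO and, on 4 S UMIs, 4.999 (1.76 to 19.5) in WT. The hepatocyte-like interval was overlapped by the macrophage-like one in both libraries and by the stellate-like one in WT.

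E2f1, an activator at the entry to S phase, had 1 of 6 class folds beyond counting error. Its G2/M level was 36.4 CPM in HKO against 23.4 CPM in WT hepatocyte-like nuclei, between 18.1 and 32.9 CPM in the other HKO classes and between 17.8 and 20.9 CPM in the other WT classes. It was the HKO fold over stellate-like nuclei, 2.01 (1.07 to 4.17), on 11 stellate-like UMIs.

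**Figure D2:**
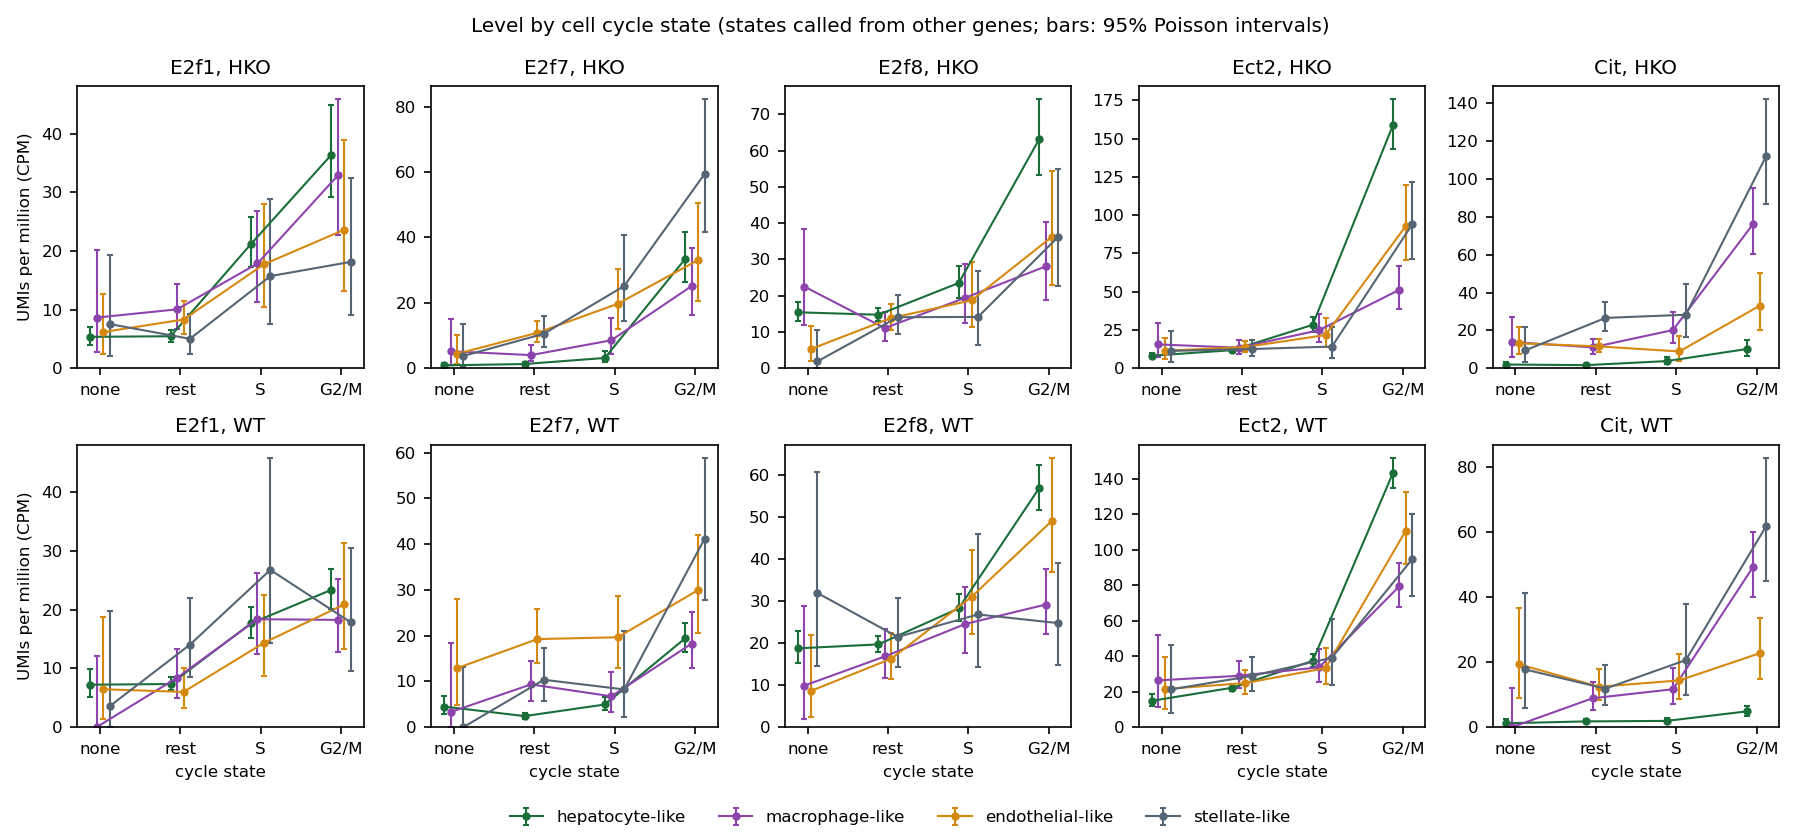
Level (CPM) of E2f1, E2f7, E2f8, Ect2 and Cit by cycle state in the 4 nuclear classes, HKO above and WT below, with 95% Poisson intervals; "rest" marks intermediate nuclei. E2f7 in hepatocyte-like nuclei is at 3.15 CPM (HKO) and 4.94 CPM (WT) in S and at 33.5 and 19.4 CPM in G2/M, and Cit stays the lowest of the 4 classes in G2/M.

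Along the cycle the hepatocyte-like nuclei had their highest levels of the spindle and ring genes in G2/M. Prc1 in HKO stood at 2.95 CPM in nuclei without reference transcripts, 5.06 in intermediate, 7.35 in S and 111 CPM in G2/M nuclei, and in WT at 5.85, 8.04, 12.4 and 88.4 CPM. From S to G2/M this was 15.04-fold (10.5 to 22.1) in HKO and 7.10-fold (5.89 to 8.63) in WT. Anln differed by 10.4-fold and 8.63-fold between the same states, Diaph3 by 8.22-fold and 4.29-fold, Racgap1 by 7.77-fold and 5.63-fold, Ect2 by 5.604-fold and 3.84-fold and Kif20b by 4.95-fold and 3.27-fold.

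Of the other E2F genes, E2f1 stood at 5.36, 5.46, 21.2 and 36.4 CPM from "none" to G2/M in HKO and at 7.22, 7.34, 17.7 and 23.4 CPM in WT hepatocyte-like nuclei, with S nuclei above those without reference transcripts (3.96-fold, 2.79 to 5.69, in HKO and 2.45-fold, 1.71 to 3.59, in WT). In nuclei with neither list E2f8 stood at 15.4 CPM in HKO against 18.7 CPM in WT, and its G2/M level was 4.09 times (3.23 to 5.19) and 3.03 times (2.43 to 3.82) that. Its level over all nuclei lay, over the 4 classes, between 15.1 and 19.4 CPM in HKO and between 22.6 and 27.7 CPM in WT, and the part of free RNA in it was not tested.

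The promoters of 3 members are shown, chosen by the class folds above. Cit was low in hepatocyte-like nuclei. Ect2 and E2f8 were higher in hepatocyte-like than in macrophage-like and stellate-like G2/M nuclei. Each line holds the 120 bases before a RefSeq start on GRCm38.p6, written 5′ to 3′ on the gene's strand. Of 2 RefSeq starts of Ect2, the one at the annotated gene's first base is shown. Capitals mark CCAAT boxes, bound by NF-Y, and the cell cycle homology region (CHR) letters TTTGAA or TTTAAA, a site of the DREAM and MuvB complexes that time late cycle genes, on either strand.
Cit (chr5:115845536-115845655, plus strand): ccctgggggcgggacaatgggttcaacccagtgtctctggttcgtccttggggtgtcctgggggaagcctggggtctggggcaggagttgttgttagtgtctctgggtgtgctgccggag
Ect2 (chr3:27153879-27153998, minus strand): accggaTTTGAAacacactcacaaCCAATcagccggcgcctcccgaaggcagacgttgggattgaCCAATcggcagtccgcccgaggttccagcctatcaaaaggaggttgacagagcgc
E2f8 (chr7:48881597-48881716, minus strand): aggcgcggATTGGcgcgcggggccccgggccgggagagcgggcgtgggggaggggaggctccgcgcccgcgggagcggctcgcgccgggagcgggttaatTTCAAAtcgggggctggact

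In windows of 300 bases (250 before to 50 after a start) a CHR was found for 6 of the 10 genes (E2f8, Anln, Ect2, Prc1, Racgap1 and Kif20b) and a CCAAT for 6 (E2f7, E2f8, Ect2, Prc1, Racgap1 and Diaph3). Of 32851 RefSeq windows, 27.6% held a CHR and 37.4% a CCAAT. One of the E2F motifs searched, TTTCCCGC, TTTCGCGC or TTTGGCGC on either strand, was found for E2f7 and no other member, and in 1.84% of all windows. The windows of Cit and E2f1 held none of these letters. The RefSeq start used for Cit lies inside the annotated gene, downstream of its first base, and other starts were not searched, so nothing follows from the missing letters about any factor.

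Across 32 sums (4 classes, 2 libraries, 4 states), up to 3 genes with the most similar log2(CPM + 1) profile were named for each member by a fixed rule, as a description over sums that share libraries and free RNA. Diaph3 and Kif20b both had Cep128 (r = 0.967 and 0.974), Cenpp (0.967 and 0.95) and Ezh2 (0.966 and 0.955). Anln had Lockd (0.95), Ezh2 (0.935) and Kifc1 (0.934), Ect2 had Kif4 (0.936), Ccdc18 (0.930) and Cep128 (0.924), Prc1 had Zwilch (0.932), Aurkb (0.931) and Ska1 (0.927), and Racgap1 had Ska1 (0.930), Ckap2 (0.925) and Cenpi (0.923). E2f1 had Poc1a (0.917), Brca1 (0.872) and Lin54 (0.871), E2f7 had Sdk1 (0.889), Smc6 (0.867) and Cdkn2c (0.859), and E2f8 had Kif24 (0.861) and Pold1 (0.839). Cit had Tsc22d4 (0.845), Map3k3 (0.839) and Epb41l2 (0.823), and its r with the other 9 members ran from 0.223 (E2f8) to 0.654 (E2f7), while Anln, Prc1, Racgap1, Kif20b and Diaph3 had r of 0.865 to 0.974 among themselves.

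Between genotypes, over all hepatocyte-like nuclei, 9 of the 10 genes were lower in HKO than in WT beyond counting error, as 26.9% of 10067 genes were by the same interval, and Cit was not. Ect2 stood at 22.6 CPM in HKO against 45.5 CPM in WT, a fold of 0.497 (0.459 to 0.539). Racgap1 stood at 6.21 and 14.0 CPM, 0.443-fold (0.380 to 0.515), and Diaph3 at 54.5 and 101 CPM, 0.538-fold (0.511 to 0.566). Anln, at 10.4 and 19.6 CPM, Prc1, at 11.9 and 22.4 CPM, and Kif20b, at 13.7 and 24.99 CPM, had folds of 0.533, 0.534 and 0.550.

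Of the E2F genes, E2f1 stood at 9.63 CPM in HKO against 12.3 CPM in WT (0.783-fold, 0.685 to 0.894), E2f8 at 19.4 and 27.7 CPM (0.700-fold, 0.639 to 0.767) and E2f7 at 3.50 and 6.04 CPM (0.579-fold, 0.467 to 0.714). Cit, at 2.76 and 2.29 CPM, had a fold of 1.21 (0.915 to 1.60).

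**Figure D3:**
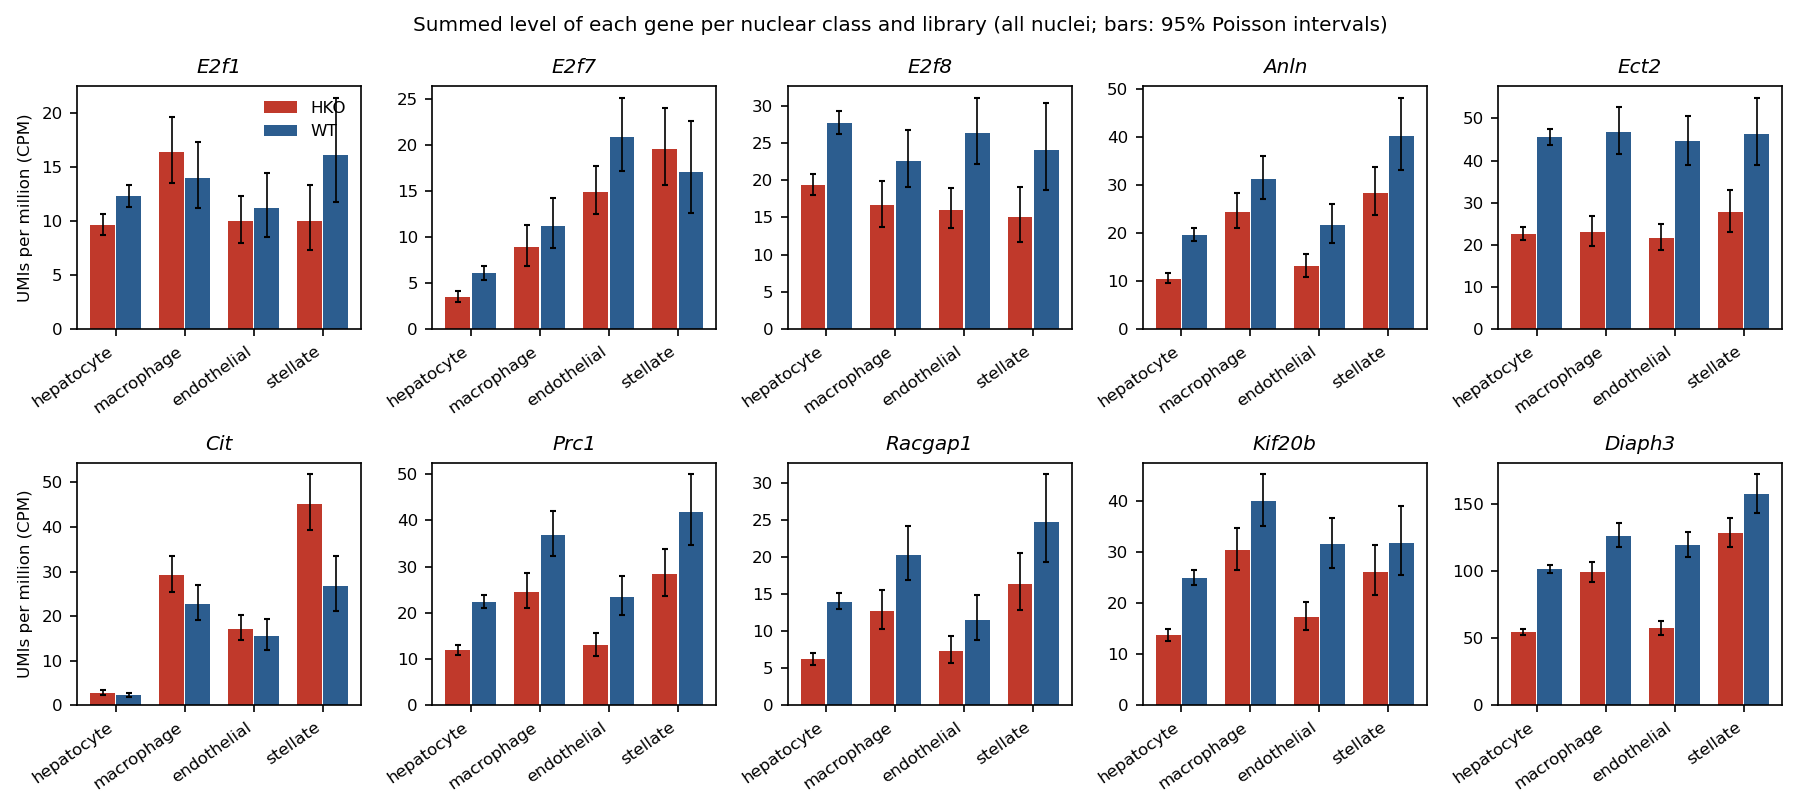
CPM of each gene over all nuclei of 4 classes, HKO left of WT, with 95% Poisson intervals. Cit is lowest in hepatocyte-like nuclei (2.76 CPM in HKO, 2.29 CPM in WT) and highest in stellate-like ones (45.2 and 26.9 CPM).

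In hepatocyte-like nuclei 8 of the 10 genes had a mean of at least 5 CPM (E2f7 and Cit did not), and 1 of these, Racgap1, was lower in HKO by a log2 ratio past 1, where 4.87% of 10067 genes were. The 8 had a median log2 ratio of -0.88, against 0.16 over all genes, and the reference G2/M genes summed to 371 CPM in HKO against 772 CPM in WT, 0.481-fold. The count of 1 depends on scaling, with Ect2 at -0.99 on the log2 scale: it was 3 with TMM factors and 5 with median ratio size factors, which bring the median of all genes to 0.04 and 0.03, and 0 with equal weights per nucleus or at clustering resolution 1.

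The 7 summed cytokinesis genes were lower in HKO in the other classes as well, except that the stellate-like fold was 1.01 with equal weights per nucleus. Ect2 was the member lower by a log2 ratio past 1 in macrophage-like nuclei, at 23.0 CPM in HKO against 46.9 CPM in WT (0.490-fold, 0.402 to 0.595), where 3.87% of genes were. In endothelial-like nuclei Ect2, at 21.6 and 44.6 CPM (0.485-fold, 0.398 to 0.589), and Diaph3, at 57.6 and 120 CPM (0.482-fold, 0.428 to 0.542), were lower by that much, where 4.61% of genes were. No member was higher by that much in the 4 classes, where 3.1%, 2.9%, 2.92% and 3.19% of genes were in hepatocyte-like, macrophage-like, endothelial-like and stellate-like nuclei. In stellate-like nuclei none was lower by that much, where 4.81% of genes were, and Cit stood at 45.2 CPM in HKO against 26.9 CPM in WT (1.68-fold, 1.29 to 2.22). The fold for the 7 summed cytokinesis genes was 0.531 (0.513 to 0.550) in hepatocyte-like, 0.749 (0.702 to 0.799) in macrophage-like, 0.549 (0.509 to 0.592) in endothelial-like and 0.815 (0.752 to 0.884) in stellate-like nuclei. Cit had a fold above 1 in all 4 classes, with an interval above 1 in macrophage-like (1.28, 1.03 to 1.60) and stellate-like nuclei.

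Within G2/M hepatocyte-like nuclei the direction was not the same. All 10 genes had a fold of HKO over WT above 1 there, from 1.09 for Racgap1 to 2.11 (1.21 to 3.60) for Cit, and 7 of the intervals lay above 1. Of all 10265 genes 65.5% had a fold above 1 and 32.3% an interval above 1, and their median log2 ratio was 0.17. Diaph3 stood at 483 CPM in HKO against 352 CPM in WT (1.37-fold, 1.28 to 1.47), E2f7 at 33.5 and 19.4 CPM (1.72-fold, 1.29 to 2.27) and E2f1 at 36.4 and 23.4 CPM (1.56-fold, 1.19 to 2.02). Ect2, E2f8 and Racgap1 had intervals that included 1, and their log2 ratios of 0.15, 0.15 and 0.13 lay below that median. No member was lower by a log2 ratio past 1, where 4.72% of genes were, and Cit was higher by that much on 24 and 38 UMIs, where 3.89% of genes were. The reference G2/M genes, which chose these nuclei, had a fold of 1.04, the summed cytokinesis genes 1.28 (1.22 to 1.34) and the summed E2F genes 1.34 (1.17 to 1.52).

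**Figure D4:**
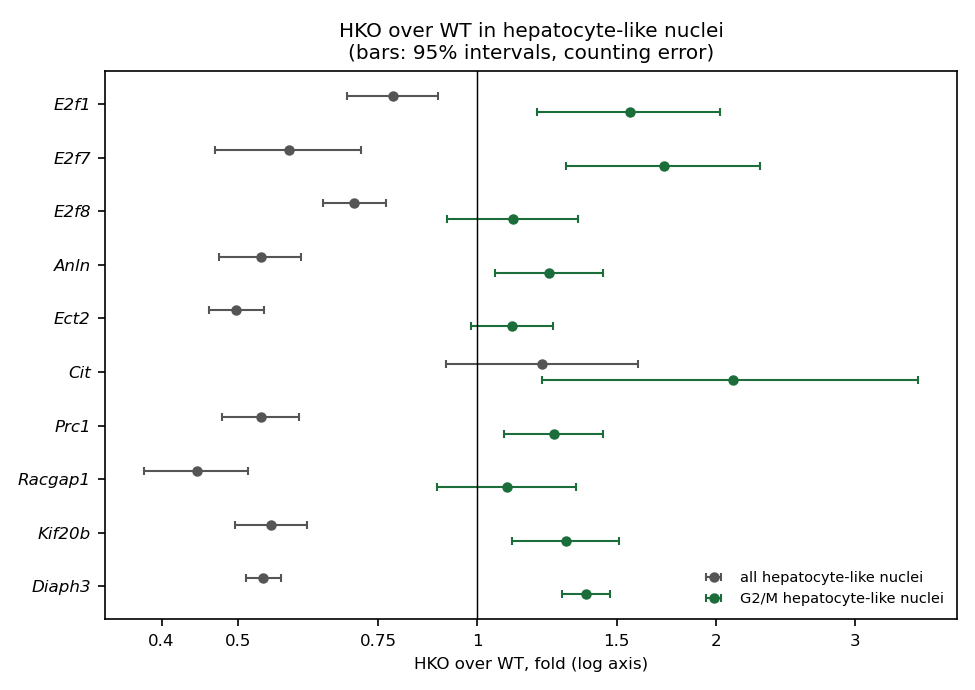
Fold of HKO over WT (log axis) of each gene in hepatocyte-like nuclei, over all nuclei (grey) and over G2/M nuclei (green), with 95% counting intervals. Over all nuclei 9 genes lie between 0.443 and 0.783 and Cit at 1.21, and over G2/M nuclei all 10 lie between 1.09 and 2.11.

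Outside G2/M the summed cytokinesis genes were lower in HKO hepatocyte-like nuclei. Single genes with folds above 1 were E2f1 (1.20), Anln (1.02) and Cit (1.99) in S nuclei, and Cit (1.68) in nuclei without reference transcripts. The intervals of these folds all included 1. In S hepatocyte-like nuclei the summed cytokinesis genes stood at 134 CPM in HKO against 174 CPM in WT (0.768-fold, 0.701 to 0.841), and in nuclei without reference transcripts at 38.0 and 77.6 CPM (0.489-fold, 0.422 to 0.566). Counted before thinning, the reference G2/M genes had folds of 0.663 and 0.575 there. In macrophage-like, endothelial-like and stellate-like nuclei the cytokinesis sum was at 0.850, 0.639 and 0.798 in S. Without reference transcripts it was at 0.788, 0.446 and 0.646. Of these other classes only the endothelial-like intervals lay below 1. The share of G2/M nuclei was 6.70% in HKO against 16.6% in WT, and the part of this share in the fold over all nuclei was not tested. At least 1 UMI of the 7 genes was found in 14.7% (13.9 to 15.5) of thinned HKO and 27.4% (26.6 to 28.3) of thinned WT hepatocyte-like nuclei, and without thinning in 23.9% and 40.4%. The 15 hepatocyte markers summed to 15378 CPM in HKO against 30050.4 CPM in WT hepatocyte-like nuclei, and the part of that gap in these folds was not tested.

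Of 43 further cytokinesis genes 35 were measured in hepatocyte-like nuclei, with none lower and 1 higher by a log2 ratio past 1, where 3.1% of all genes were higher, 10 below a log2 ratio of 0, and a median of 0.17 against 0.16 over all genes. The 1 was Diaph1, the formin related to Diaph3, at 440 CPM in HKO against 213 CPM in WT (2.06-fold, 2.01 to 2.11), and its fold was 1.85, 2.07 and 2.06 in macrophage-like, endothelial-like and stellate-like nuclei. Next in size came genes lower in HKO: Birc5 (survivin) and Incenp, both of the chromosomal passenger complex, at 0.550-fold and 0.592-fold, and the midzone kinesin Kif4 at 0.597-fold.

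Of 15 genes of the E2F and pocket protein families 13 were measured and 1, the activator E2f2, was lower by a log2 ratio past 1, where 4.87% of all genes were, at 3.24 CPM in HKO against 9.21 CPM in WT (0.352-fold, 0.285 to 0.430). E2f2 counted as measured through its WT level alone, so this count supports nothing. The pocket protein Rbl1 followed at 18.3 and 36.4 CPM (0.503-fold, 0.460 to 0.550), while E2f4, a mostly repressive E2F, at 1.42-fold and Lin52, a MuvB subunit, at 1.39-fold were higher within the limit. Of 24 polyploidy regulators 20 were measured and none passed the limit. The largest ratios were those of Cdkn1a, the p53 target that encodes p21, at 7.58 CPM in HKO against 4.51 CPM in WT (1.68-fold, 1.40 to 2.02), of Pidd1, part of the caspase-2 complex that reports extra centrosomes, at 4.29 and 6.19 CPM (0.692-fold, 0.568 to 0.842), of Mdm2, which restrains p53, at 1.39-fold, and of Ssu72, a phosphatase, at 1.38-fold. Cdkn1a in WT and Pidd1 in HKO were below 5 CPM and entered the list through the other library.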

How the data were processed

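Values are raw UMI counts per gene and barcode as deposited by the authors, not normalized. Cell Ranger 5.0.0, STAR, Seurat 3.2.0 and GRCm38 are named in the submitters' processing notes with no role or order. The labels describe total RNA purification although the molecule is nuclear RNA. The members and lists were chosen with earlier results of these data known, and the class naming rule was set after the data were seen.

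Barcodes with at least 500 genes and at most 10% mitochondrial UMIs were kept, 14902 in HKO and 14515 in WT. No doublet caller was run and doublets were not removed. Nuclei of both libraries entered 1 clustering, with no batch correction, on 2000 variable genes that leave out the members and the cycle and pathway lists (scikit-learn 1.9.0, 30 components and 15 neighbours, then Leiden at resolution 0.5 with igraph 0.11.9 and leidenalg 0.10.2). A macrophage-like, endothelial-like or stellate-like cluster needed at least 3 of its markers, and most of those detected, at 2-fold or more over the rest of its library. A hepatocyte-like cluster needed no other candidate class and at least 3 hepatocyte markers above the pooled other classes of its library. Its 10 leading genes could not hold more markers of another list, red cell genes included, than hepatocyte markers. A cluster with at least 3 mitochondrial or red cell genes among its 10 leading genes was left unnamed. One was cluster 12, with 30 HKO and 511 WT nuclei, mitochondrial leading genes and 9 of 15 hepatocyte markers above the other classes. The nuclei of clusters left unnamed were 477 in HKO and 657 in WT.

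Counts were summed per class and library and given as CPM, counts per 1000000 of the class total. Log2 ratios add 0.5 to both CPM values, and a gene counts as measured at a mean of at least 5 CPM. Sums carry Poisson, folds exact conditional and shares Clopper-Pearson intervals, all for counting error only, at 95%. A gene counts as higher or lower past the limit at a log2 ratio of 1 in size. Named genes were the 10 members, up to 4 genes of each pathway list with the largest ratio in hepatocyte-like nuclei and the 3 genes most like each member, of which 1 for E2f8 is not reported here. The calculation was tested on simulated counts. Alternatives covered clustering, depth, scaling (edgeR 4.0.16 under R 4.3.3), floors, cycle calls and thinning, and 1 alternative, nuclei selected on markers, was chosen after seeing the data. The fold of HKO over WT within cycle states and its alternatives were not planned either and were added. Promoters are from RefSeq (GRCm38.p6), with windows found for all 10 members. Computation used scipy 1.17.1, numpy 2.4.6, pandas 2.3.3, and matplotlib 3.10.9 for plots, under Python 3.11.15.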

Additional observations from a re-analysis of the deposited data

Results flagged for a closer look

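Diaph3 in G2/M nuclei lay on opposite sides of 1 in different classes when HKO was set over WT, beyond counting error each time. The fold was 1.37 in hepatocyte-like nuclei (483 CPM in HKO, 352 CPM in WT) and 1.21 in stellate-like nuclei (478 and 397 CPM), but 0.782 in endothelial-like nuclei (238 and 304 CPM). The reference G2/M genes lay on the same sides of 1, with summed folds of 1.04 in hepatocyte-like, 1.17 in stellate-like and 0.770 in endothelial-like nuclei. Per 100 of their UMIs Diaph3 was 12.3 in HKO and 12.1 in WT for endothelial-like nuclei. It was 15.2 (HKO) against 14.8 (WT) for stellate-like nuclei, and 16.5 (HKO) against 12.6 (WT) for hepatocyte-like ones. The difference between classes was not tested, since each genotype has 1 library.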

How the results depend on the processing

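No paired analysis was possible because each genotype has 1 library, so no replicate was left out either. Of the main results recomputed under the alternatives, 109 values stayed within the counting interval (counts within 1.5 times) and 41 moved beyond it. Of the single-gene and other values, 513 stayed, 38 moved and 1 reversed. The cause was not tested. That reversal was the fold of HKO over WT of the 7 summed cytokinesis genes in stellate-like nuclei, 1.01 with equal weight per nucleus against 0.815. In hepatocyte-like nuclei that fold was 0.702 at clustering resolution 1, 0.488 with TMM factors, 0.485 with median ratio size factors and 0.568 with equal weights, against 0.531, and the E2F fold was 0.649, 0.645 and 0.776 with the last 3, against 0.706. The count of members lower past the limit was 2 with clustering on all variable genes, 0 at resolution 1, 3 with TMM, 5 with median ratio factors and 0 with equal weights. At resolution 1 the hepatocyte-like class held 4305 HKO and 8863 WT nuclei. Clusters of 3470 and 894 HKO nuclei, led by haemoglobin and by mitochondrial genes, were unnamed there. They had 12 and 14 of 15 hepatocyte markers above the other classes. A haemoglobin-led cluster with 2070 WT nuclei and 13 of 15 was also unnamed. The values at resolution 1 therefore rest on another set of nuclei.

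In G2/M nuclei the cytokinesis sum of hepatocyte-like over macrophage-like nuclei in HKO was 1.75 at resolution 1 and 1.28 with G2/M called at 2 UMIs, over endothelial-like 1.94, 1.41 and, thinned to 1000 UMIs, 1.43, and over stellate-like 1.04 and 0.811. In WT it was, over macrophage-like nuclei, 1.35 with all variable genes, 1.35 at resolution 1, 1.09 and 1.41 with calls at 2 and 5 UMIs and 1.36 thinned to 1000, and over endothelial-like nuclei 1.23 with all variable genes and 1.26 thinned to 1000. Cit over macrophage-like nuclei in WT was 0.0650 in nuclei selected on markers, an alternative chosen after seeing the data. Within G2/M hepatocyte-like nuclei the sum's HKO over WT fold was 1.19 with all variable genes, 1.37 at resolution 1, 1.19 and 1.13 with calls at 2 and 5 UMIs and 1.14 thinned to 1000. Per 100 reference UMIs the cytokinesis genes had 34.3 in HKO at resolution 1, and without the 3 most abundant reference genes 44.8 in HKO and 40.3 in WT, the E2F genes 6.66 in HKO and 5.72 in WT. The share of hepatocyte-like nuclei with a cytokinesis UMI was 9.16% in HKO and 16.3% in WT thinned to 1000 UMIs, and 23.9% and 40.4% without thinning.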
